A study of Mus musculus with 6 samples.

Results

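The expression of 10 transcription factors that specify the heart was examined in Flk1+ mesodermal cells sorted from mouse embryoid bodies. The members were Isl1, Hand1, Hand2, Nkx2-5, Mef2c, Myocd, Tbx2, Tbx3, Tbx5 and Tbx20, and every probe set annotated to one of them alone was taken. These are 10 of 18193 genes named on the arrays, with 26 of the 45037 probe sets on the arrays that are not controls. Of the 26, 20 passed a filter on dim values (20 of 28363 in all), with at least 1 for each of the 10 genes. The 6 arrays, from day 4 of differentiation, fell into 3 groups of 2. SclKO cells came from the SclKO ES line, derived from J1 (strain 129S4/SvJae), and were sorted on Flk1 alone. WT Scl+ and WT Scl- cells both came from a reporter line with human CD4 knocked in at the Scl locus, derived from R1 ((129/Sv x 129/Sv-CP)F1), and were the Flk1+ human CD4+ and the Flk1+ human CD4- cells. In any comparison with SclKO, the loss of Scl, the ES line and the gate differ together and cannot be told apart. Each line is a single ES line, and nothing in the labels says that replicates were separate cultures, so the p-values cover the spread among these arrays only, which may be technical.

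The heart forms from a pair of mesodermal progenitor fields. The first heart field gives mainly the left ventricle and depends on Tbx5 and, for the ventricle, on Hand1. The second heart field adds the right ventricle, the outflow tract and parts of the atria, and uses Isl1, Hand2 and Mef2c. Nkx2-5, Tbx20 and Myocd act in both fields, and Tbx2 and Tbx3 repress chamber genes where the heart stays non-chamber muscle. Scl (gene Tal1), a basic helix-loop-helix factor needed for blood, binds E-boxes as a dimer with E proteins, often beside GATA factors. The comparisons ask how the cardiac factors stand in Flk1+ cells positive for the Scl reporter, negative for it, or of the SclKO line.

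Levels are natural logs of the deposited values, and differences are in log units. The sources used here do not give the base of the authors' values: 1 log unit is 2-fold if the natural log is an RMA log2 value and 2.72-fold otherwise, so each fold is given under both readings in that order. Between 1040 and 1153 deposited values per array exceed the 16-bit scanner ceiling of 65535, which an array signal on a linear scale would not. The second, larger fold of each pair may therefore be too large. A value under the 40th percentile of its array (4.54 to 4.59) was treated as dim, with no exact level. Levels of different probe sets are not comparable with each other. In these sorted bulk samples fewer cells of a type and less RNA per cell cannot be told apart.

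WT Scl+ replicate 2 stood apart from the other arrays. Its correlation with them across probe sets, which are not independent replicates, was 0.937 to 0.964, against 0.973 to 0.986 between any of the others. It lay at -78.4 on the first principal component (53.2% of the variance), with the other arrays between -11.5 and 38.1. Its mean for the bacterial control bioB was 11.26, against 10.41 to 10.84 on the others. Values without this array are therefore given beside many of the results. Tal1 was at 5.71 and 6.14 in SclKO, 8.65 and 8.78 in WT Scl+, and 6.52 and 7.97 in WT Scl-. The WT Scl- arrays thus also differed from each other. WT Scl- replicate 2 correlated at 0.984 with WT Scl+ replicate 1 and at 0.982 with WT Scl- replicate 1. The sort marker Kdr lay between 10.83 and 11.35 on all 6 arrays.

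Of the members, 5 had entries in a RefSeq table of promoters (build GRCm38.p6, 250 bases before the start to 50 after it). The 3 printed here belong to the members with an entry whose groups differed most without overlap: Isl1 (chr13:116309639-116309938, minus strand), Mef2c (chr13:83503784-83504083, plus strand, the start nearest the 5′ end of the gene, of 3 listed) and Tbx20 (chr9:24774254-24774553, minus strand). They are shown because Isl1 and Mef2c, both second heart field factors, lay on opposite sides of the comparison between WT Scl+ and WT Scl-. Capitals mark every E-box (CANNTG) and every GATA core (GATA), on both strands, with no overlap between them.
Isl1: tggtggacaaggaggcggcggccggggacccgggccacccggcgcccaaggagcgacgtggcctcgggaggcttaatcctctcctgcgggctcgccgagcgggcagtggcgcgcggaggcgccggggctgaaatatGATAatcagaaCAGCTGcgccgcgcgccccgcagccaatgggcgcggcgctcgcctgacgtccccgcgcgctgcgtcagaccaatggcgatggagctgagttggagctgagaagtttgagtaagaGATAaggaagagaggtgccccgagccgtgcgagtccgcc
Mef2c: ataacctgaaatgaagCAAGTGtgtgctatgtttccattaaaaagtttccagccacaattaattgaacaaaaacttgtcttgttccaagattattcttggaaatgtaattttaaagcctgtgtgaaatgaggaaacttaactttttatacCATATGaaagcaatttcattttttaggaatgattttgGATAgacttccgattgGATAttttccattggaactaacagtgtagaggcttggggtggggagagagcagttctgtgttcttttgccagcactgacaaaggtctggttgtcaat
Tbx20: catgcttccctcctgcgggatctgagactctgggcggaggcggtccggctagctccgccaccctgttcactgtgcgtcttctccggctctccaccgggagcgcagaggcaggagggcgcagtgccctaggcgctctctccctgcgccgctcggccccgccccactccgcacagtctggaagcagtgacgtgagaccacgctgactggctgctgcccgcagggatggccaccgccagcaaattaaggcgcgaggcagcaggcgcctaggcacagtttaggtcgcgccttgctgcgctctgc
The Isl1 promoter held 1 E-box, of the form CAGCTG, and 2 GATA cores. The Mef2c promoter held 2 E-boxes and 2 GATA cores. In the Tbx20 window neither motif was found. Of all 32851 mouse promoters of this length, 72.3% held an E-box, 16.3% held CAGCTG and 57.9% held a GATA core, so the matches are common and describe the letters alone. The T-box motif GGTGTG, in 19% of promoters, was found in none of the 3 windows.

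In WT Scl+ cells most of the cardiac factors lay lower than in WT Scl- cells, with Mef2c higher and, among the lower ones, Isl1 and Tbx2 farthest apart, besides Hand1, Tbx20 and Tbx3. No member passed the test over all probe sets: of 28363 probe sets limma placed 0 higher (0%) and 0 lower (0%) below an adjusted p of 0.05, the smallest being 0.439. Before adjustment, at p under 0.05, 7 of the 20 members' probe sets were lower and 1 was higher, where 4.94% of all probe sets were lower and 4.44% higher. The groups did not overlap, with WT Scl+ lower, for 12 of the 20, against 21.2% of all probe sets, and with WT Scl+ higher for 1 of the 20, against 16.6%. The median difference of the 20 was -0.63 log units, against -0.04 over all probe sets. Without WT Scl+ replicate 2, 13 of the 20 lay lower without overlap, against 33.8% of all probe sets. The filter passes a probe set that is bright in only 1 group, and members with several probe sets count more than once. The members and lists were chosen with earlier results of these data known. Counts set against all probe sets, here and below, therefore describe a chosen set and are not a test of it. With 1 probe set per gene, 6 of 10 members lay lower without overlap, against 18.5% of genes. Both this count and the 12 include Tbx5, which was near or under the limit for dim values. It was at 4.44 and 3.85 in WT Scl+ and 4.73 and 4.44 in WT Scl-.

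The replicate numbers were taken to pair the arrays, since deviations of same-numbered arrays correlated at 0.205 to 0.238 in the pairs of groups. These correlations are weak and run over probe sets that are not independent, so the block rests on an assumption. With the replicate number as a block, 11 of the 20 were lower at an unadjusted p under 0.05 (6.86% of all probe sets) and 2 higher (5.46%), and again none passed over all probe sets (lowest adjusted p = 0.148). The direction was the same within both replicate numbers for 13 of the 20 as lower, against 32.6% of all probe sets, and for 4 as higher, against 23.8%.

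**Figure D1:**
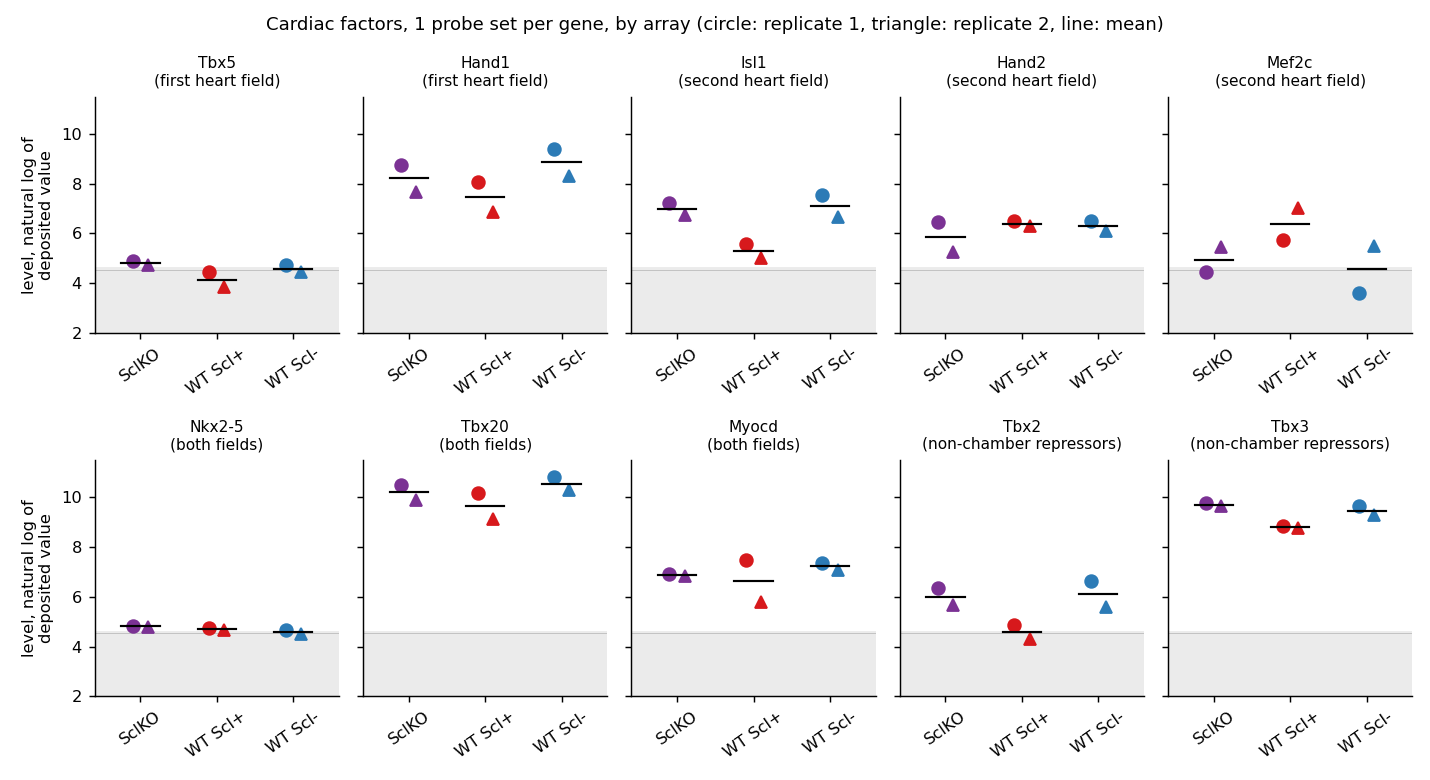
Natural log of the deposited value (y axis) of the brightest probe set of each of the 10 cardiac factors on the 2 arrays of SclKO, WT Scl+ and WT Scl- (x axis). Circles are replicate 1, triangles replicate 2, black lines group means, and the grey band ends at the highest limit for dim values, 4.59. For Isl1 both WT Scl+ arrays lie below all 4 others, and for Mef2c both lie above them.

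The second heart field factors did not all lie on one side. Isl1, a LIM homeobox factor that marks second heart field progenitors, was read by a pair of probe sets. The brighter was at 7.23 and 6.75 in SclKO, 5.57 and 5.01 in WT Scl+, and 7.53 and 6.68 in WT Scl-. Both WT Scl+ arrays lay below every other array, and the SclKO and WT Scl- arrays overlapped. WT Scl+ was lower than WT Scl- by 1.81 log units (3.51-fold or 6.115-fold; SE 0.35, 95% interval of the difference -2.67 to -0.95, limma adjusted p = 0.439). It was -1.96 within replicate 1 and -1.66 within replicate 2. The second probe set gave -2.05 log units (SE 0.39), and -1.9 with the dim value of WT Scl+ replicate 2, 4.27, set to its limit.

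Mef2c, a MADS-box factor of cardiac progenitors that endothelial cells also use, lay the other way. Its brightest probe set was at 4.45 and 5.45 in SclKO, 5.74 and 7.04 in WT Scl+, and 3.6 and 5.51 in WT Scl-. Both WT Scl+ arrays lay above the 4 others; the nearest was WT Scl- replicate 2 at 5.51, beside WT Scl+ replicate 1 at 5.74. Relative to WT Scl-, WT Scl+ stood at 1.84 log units (3.58-fold or 6.29-fold; SE 0.74, 95% interval 0.05 to 3.63, limma adjusted p = 0.528). It was 1.19 without WT Scl+ replicate 2, 0.88 without WT Scl- replicate 1 and 2.8 without WT Scl- replicate 2, and 1.35 with dim values set to the limit. Another Mef2c probe set gave 0.82 log units (SE 0.47) with overlapping groups, and 0.39 without WT Scl+ replicate 2, and the other 3 did not pass the filter.

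Hand2, a basic helix-loop-helix factor of the right ventricle, showed no difference beyond its spread. Its brightest probe set was at 6.45 and 5.26 in SclKO, 6.51 and 6.28 in WT Scl+, and 6.48 and 6.11 in WT Scl-. Here WT Scl+ minus WT Scl- was 0.1 log units (SE 0.39, 95% interval -0.85 to 1.05), so a difference of either sign lies within the interval. The other 2 probe sets differed by 0.04 and -0.1 log units, with overlapping groups for all 3.

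Of the first heart field factors, Hand1, a basic helix-loop-helix factor of the left ventricle and of extraembryonic mesoderm, lay lower in WT Scl+ on both of its probe sets. On the one with the higher mean it was at 8.76 and 7.68 in SclKO, 8.06 and 6.85 in WT Scl+, and 9.4 and 8.31 in WT Scl-. The WT Scl+ arrays lay below both WT Scl- arrays, and in all 3 groups replicate 1 lay above replicate 2. Set against WT Scl-, WT Scl+ came to -1.4 log units (2.64-fold or 4.05-fold lower; SE 0.58, limma adjusted p = 0.534). Within replicate 1 it was -1.34 and within replicate 2 -1.46, and its SE fell to 0.15 with the replicate number as a block (adjusted p = 0.173). It was -0.79 without WT Scl+ replicate 2 and -0.85 without WT Scl- replicate 1. The second probe set gave -0.95 log units (SE 0.39), -0.63 without WT Scl+ replicate 2 and -0.53 without WT Scl- replicate 1.

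Tbx5, the T-box factor that defines the first heart field, was near or under the limit for dim values throughout. Its brighter probe set was at 4.91 and 4.74 in SclKO, 4.44 and 3.85 in WT Scl+, and 4.73 and 4.44 in WT Scl-. Both WT Scl+ arrays were dim, so the difference of -0.44 log units from WT Scl- (SE 0.24) shrank to -0.11 at the limit, and was -0.15 without WT Scl+ replicate 2. The other Tbx5 probe set was dim on all 6 arrays.

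As means over 1 probe set per gene, the first heart field pair differed by -0.92 log units between WT Scl+ and WT Scl- and the second heart field trio by 0.04, or by -0.47 and -0.04 without WT Scl+ replicate 2. Tbx5 was dim on both WT Scl+ arrays and on 1 WT Scl- array, and Mef2c on 1 WT Scl- array and 1 SclKO array. With dim values at the limit, WT Scl+ minus WT Scl- was -0.11 log units for Tbx5 and 1.35 for Mef2c. The field means use the values as they are. The mean of Tbx5 and Hand1 was 6.83 and 6.21 in SclKO, 6.25 and 5.35 in WT Scl+, and 7.06 and 6.37 in WT Scl-. The mean of Isl1, Hand2 and Mef2c was 6.04 and 5.82 in SclKO, 5.94 and 6.11 in WT Scl+, and 5.87 and 6.1 in WT Scl-. Second minus first field therefore differed by 0.96 log units between WT Scl+ and WT Scl-, by 0.43 without WT Scl+ replicate 2 and by 0.24 with all probe sets of a gene averaged. On single arrays it was -0.3 and 0.76 in WT Scl+, against -1.19 and -0.27 in WT Scl-, so the groups overlapped. The flat second field mean joins Isl1 at -1.81, Hand2 at 0.1 and Mef2c at 1.84 log units, so its members lay on opposite sides. Between SclKO and WT Scl+ the first field mean differed by 0.72 log units and the second by -0.1. Without WT Scl+ replicate 2 these were 0.27 and -0.01. Second minus first field differed by -0.82 log units between SclKO and WT Scl+, and by 0.15 between SclKO and WT Scl-. On the SclKO arrays it was -0.79 and -0.39. These means are over chosen members and were not tested.

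**Figure D2:**
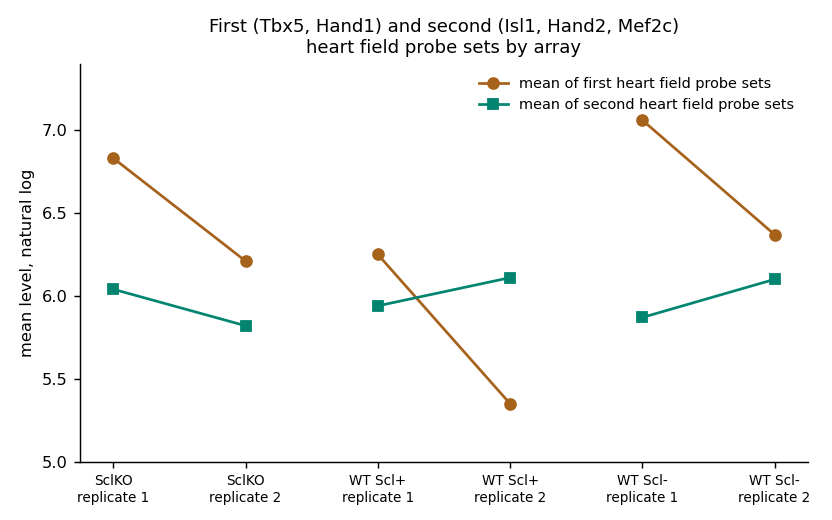
Mean natural log level (y axis) of the first heart field probe sets (Tbx5, Hand1) and the second heart field probe sets (Isl1, Hand2, Mef2c) on each of the 6 arrays (x axis), with lines joining the replicates of a group. The first field mean is lowest in WT Scl+ replicate 2, at 5.35, while the second field mean stays between 5.82 and 6.11 on all arrays.

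Of the factors that act in both fields, Tbx20, a T-box factor needed for the growth of the heart tube, lay lower in WT Scl+ on all 3 of its probe sets. The brightest was at 10.5 and 9.89 in SclKO, 10.16 and 9.14 in WT Scl+, and 10.82 and 10.28 in WT Scl-. The WT Scl+ arrays lay below the WT Scl- arrays without overlap, and overlapped with SclKO. WT Scl+ minus WT Scl- came to -0.9 log units (1.86-fold or 2.45-fold lower; SE 0.4, limma adjusted p = 0.568), and -0.39 without WT Scl+ replicate 2. The other probe sets gave -1.14 (SE 0.4) and -1.48 log units (SE 0.58), and -0.6 and -0.53 without that array.

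Myocd, a coactivator of the serum response factor in cardiac and smooth muscle, had its highest and lowest values in the same group. Its tested probe set was at 6.91 and 6.85 in SclKO, 7.49 and 5.79 in WT Scl+, and 7.37 and 7.08 in WT Scl-. WT Scl+ replicate 1 was the highest of the 6 arrays and WT Scl+ replicate 2 the lowest. Relative to WT Scl-, WT Scl+ stood at -0.59 log units (SE 0.51) and turned to 0.26 without WT Scl+ replicate 2. Nkx2-5, the homeobox factor of the early heart tube, lay near the limit for dim values, with 1 WT Scl- array under it, at 4.81 and 4.8 in SclKO, 4.74 and 4.65 in WT Scl+, and 4.68 and 4.5 in WT Scl-. WT Scl+ exceeded WT Scl- by 0.11 log units (SE 0.16), or 0.06 with the dim value at the limit, and the groups overlapped.

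The repressors of the chamber programme lay lower in WT Scl+. Tbx2 was at 6.34 and 5.66 in SclKO, 4.85 and 4.3 in WT Scl+, and 6.62 and 5.59 in WT Scl-. Both WT Scl+ arrays lay below the 4 others, and the second was dim. Here WT Scl+ minus WT Scl- was -1.53 log units (2.89-fold or 4.62-fold lower; SE 0.41, limma adjusted p = 0.439), -1.39 at the limit and -1.01 without WT Scl- replicate 1.

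Tbx3, the related repressor, had 5 probe sets, of which 4 passed the filter. The brightest was at 9.77 and 9.64 in SclKO, 8.85 and 8.75 in WT Scl+, and 9.66 and 9.27 in WT Scl-. Both WT Scl+ arrays lay below all other arrays. Set against WT Scl-, WT Scl+ came to -0.66 log units (1.585-fold or 1.94-fold lower; SE 0.19, limma adjusted p = 0.447). The probe sets of Tbx3 differed in size. The next, whose name carries the _x_ suffix of probes that can also match other transcripts, gave -1.35 log units (SE 0.26). Another gave -0.32 (SE 0.2) with overlapping groups, -0.66 within replicate 1 and 0.01 within replicate 2. That difference was -0.51 without WT Scl+ replicate 2 and -0.14 without WT Scl+ replicate 1. The last one tested gave -0.43 (SE 0.34).

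Isl1, Tbx2 and Tbx3 lay higher in SclKO than in WT Scl+ and Mef2c lay lower. Both comparisons share the WT Scl+ arrays, so they are not independent. No member passed over all probe sets: limma called 1 of 28363 higher (0.00353%) and 2 lower (0.00705%) in SclKO, and 2 higher (0.00705%) and 4 lower (0.0141%) with the replicate block. At an unadjusted p under 0.05, 7 of the 20 members' probe sets were higher and 0 lower, against 7.35% and 5.68% of all probe sets. With the block these counts were 11 and 2, against 9.74% and 6.72%. SclKO lay higher without overlap for 10 of the 20, against 24.4% of all probe sets, and lower for 1, against 18.2%. The 10 include Tbx5, whose WT Scl+ arrays were both dim. Without WT Scl+ replicate 2 the count of higher ones was also 10, against 36.6%. The median difference of the 20 was 0.67 log units, against 0.05 over all probe sets.

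On its brighter probe set, Isl1 was higher in SclKO than in WT Scl+ by 1.7 log units (3.25-fold or 5.47-fold; SE 0.35, 95% interval 0.84 to 2.56, limma adjusted p = 0.177), and on the other by 1.71 (SE 0.39). The difference was 1.66 within replicate 1 and 1.74 within replicate 2, and between 1.42 and 1.98 with any 1 array of these groups left out. Tbx2 was higher by 1.42 log units (2.68-fold or 4.15-fold; SE 0.41, adjusted p = 0.268), with 1.49 and 1.35 within the replicate numbers. Tbx3 was higher by 0.9 log units on its brightest probe set (SE 0.19, adjusted p = 0.177), and between 0.49 and 1.35 on the other 3 tested, all without overlap of the arrays. Tbx5 was at 0.68 log units (SE 0.24), at least 0.27 with the dim WT Scl+ arrays at the limit, and 0.39 without WT Scl+ replicate 2.

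Mef2c differed between SclKO and WT Scl+ by -1.45 log units (2.72-fold or 4.24-fold lower; SE 0.74, adjusted p = 0.469), by -0.79 without WT Scl+ replicate 2 and by -0.94 without SclKO replicate 1. Its other tested probe set gave -0.65 (SE 0.47) with overlapping groups, and -0.22 without WT Scl+ replicate 2. Hand1 and Tbx20 did not pass and overlapped on their brightest-ranked probe sets. For Hand1 SclKO minus WT Scl+ came to 0.77 log units (SE 0.58), 0.7 and 0.83 within the replicate numbers, and 0.16 without WT Scl+ replicate 2; its other probe set gave 0.75 (SE 0.39), without overlap, and 0.43 without WT Scl+ replicate 2. For Tbx20 it was 0.54 log units (SE 0.4), falling to 0.03 once WT Scl+ replicate 2 was left out. The other Tbx20 probe sets gave 0.66 (SE 0.4) and 1.07 log units (SE 0.58) with overlapping groups, and 0.12 and 0.13 without that array. Hand2 was at -0.54 log units (SE 0.39), with -0.06 and -1.02 within the replicate numbers, and its other probe sets gave 0.01 and 0.14. Nkx2-5 was at 0.11 log units (SE 0.16). Chromosome 11 carries Hand1, Myocd and Tbx2. Its 1119 tested genes had a median of -0.146 log units in SclKO minus WT Scl+, where the medians of the other autosomes ran between 0.034 and 0.085. The part of this shift in the values of these 3 genes was not tested.

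**Figure D3:**
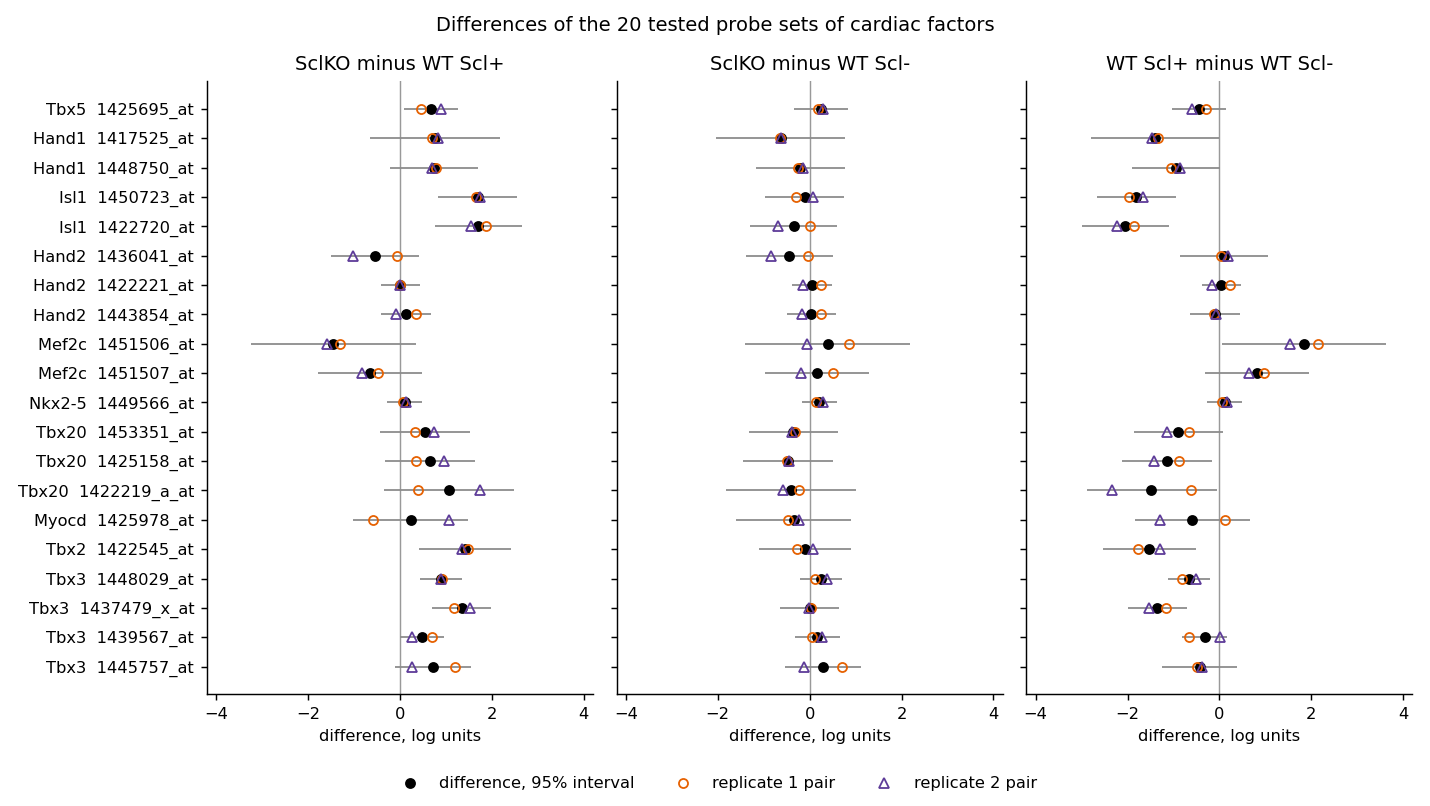
Differences in log units (x axis) for the 20 tested probe sets (y axis) in SclKO minus WT Scl+, SclKO minus WT Scl- and WT Scl+ minus WT Scl-. Black points with grey lines are the difference with its 95% interval from the fit, open circles and triangles the differences within replicates 1 and 2. Isl1 lies at 1.7 in the first panel and -1.81 in the third, and at -0.11 in the second.

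Between SclKO cells, sorted on Flk1 alone, and WT Scl- cells, sorted as negative for the Scl reporter, most members' arrays overlapped. At an adjusted p under 0.05 limma called no member, with 1 probe set higher (0.00353%) and 2 lower (0.00705%) among 28363. At an unadjusted p under 0.05, 0 of the 20 were higher and 0 lower, against 2.7% and 2.77% of all probe sets. SclKO lay higher without overlap for 2 of the 20, against 21.7% of all probe sets, and lower for 2, against 19.5%. With the replicate block 0 of the 20 were higher and 1 lower, against 3.68% and 3.64%. The median difference was -0.05 log units, against 0.01 over all probe sets.

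The intervals of these differences were wide. Isl1 differed by -0.11 log units between SclKO and WT Scl- (95% interval -0.97 to 0.75), Tbx2 by -0.11 (-1.11 to 0.9) and Tbx3 by 0.24 (-0.22 to 0.7). Hand1 was at -0.63 log units (SE 0.58), -0.64 and -0.63 within the replicate numbers, and with the block its SE was 0.15 (unadjusted p = 0.00712, adjusted p = 0.64 over all probe sets). It was -0.09 without WT Scl- replicate 1 or without SclKO replicate 2. Tbx20 was at -0.36 log units (SE 0.4) and Mef2c at 0.39 (SE 0.74). The mean of Hand1 was 8.22 in SclKO, 7.45 in WT Scl+ and 8.85 in WT Scl-, and that of Tbx20 10.19, 9.65 and 10.55 in the same order. SclKO thus lay between the WT groups for both genes, but on these brightest-ranked probe sets its arrays overlapped with each of them. On the other Hand1 probe set SclKO lay above WT Scl+ without overlap, by 0.75 log units (SE 0.39). On another Tbx20 probe set SclKO lay below WT Scl- without overlap, by 0.41 log units (SE 0.58). The median of chromosome 11, with Hand1, Myocd and Tbx2, was -0.154 log units in SclKO minus WT Scl-, where the other autosomes ran between 0.012 and 0.06.

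Across the 6 arrays, the gene whose level was most like that of Isl1 was another member, Tbx2 (Pearson r = 0.989), among 1138 genes with an SD of at least 0.5. It was followed by Rftn1 (0.986), the streak ligand gene Wnt3 (0.983), the retinoic acid carrier gene Crabp2 (0.981) and Spata13 (0.98). For Hand1 the nearest were Tmem88 (0.995), the member Tbx20 (0.985), Hspa12b (0.982), Gjb5 (0.981) and Capn6 (0.975). These are descriptions over 6 points that share 3 groups and the pairing of replicates.

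**Figure D4:**
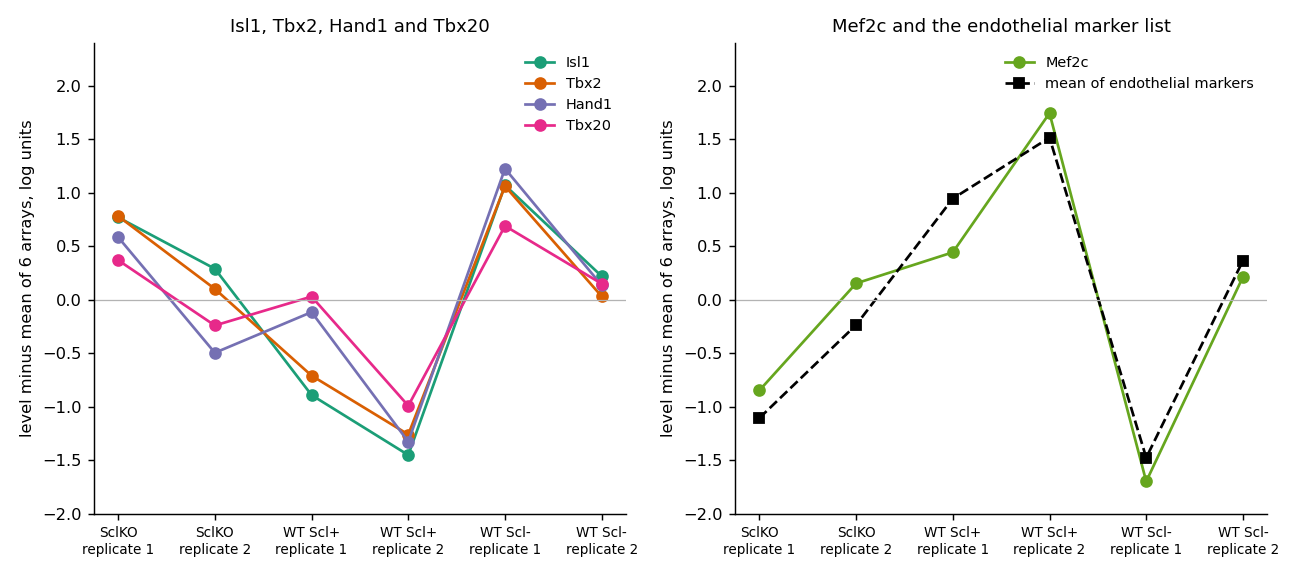
Level minus the mean of the 6 arrays, in log units (y axis), for the 6 arrays (x axis). The left panel holds Isl1, Tbx2, Hand1 and Tbx20, and the right panel Mef2c with the mean of the 8 endothelial markers. Isl1 and Tbx2 lie below 0 on the WT Scl+ arrays alone, and Mef2c and the endothelial mean have the same order over the 6 arrays.

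Markers of other cells differed between the same groups, with none past the test over all probe sets. The mean level of 8 endothelial markers (Pecam1, Cdh5, Tek, Tie1, Esam, Egfl7, Emcn, Erg) was 5.14 and 6.01 in SclKO, 7.19 and 7.76 in WT Scl+, and 4.77 and 6.61 in WT Scl-. All 7 tested were higher without overlap in WT Scl+ than in WT Scl-, against 16.6% of all probe sets, with a median of 1.88 log units, and Emcn was dim on all 6 arrays. The order of the arrays by this level was that of Mef2c (Spearman rho = 1, n = 6 arrays) and the reverse of that of Isl1 and Tbx2 (rho = -1 for each). It was -0.94 for Tbx3, -0.83 for Hand1, Tbx5 and Tbx20, -0.43 for Nkx2-5, -0.26 for Myocd and -0.09 for Hand2. This order was not particular to the endothelial list. The mean of the Flk1+ mesoderm markers Kdr, Pdgfra and Mesp1 gave its exact reverse. That mean was 9.72 and 9.49 in SclKO, 8.78 and 8.46 in WT Scl+, and 9.73 and 9.29 in WT Scl-. The 9 blood and hemogenic markers had mean levels of 5.25 and 5.41 in SclKO, 7.58 and 7.47 in WT Scl+, and 5.59 and 6.67 in WT Scl-. Ptprc was dim on all 6 arrays. The 8 tested were all higher without overlap in WT Scl+ than in WT Scl-, against 16.6% of all probe sets. Tal1, 1 of them, is the gene of the sort reporter and of the knockout, so its side is not a separate result. Pdgfra, a receptor of paraxial and cardiac mesoderm, was at 8.25 and 7.99 in SclKO, 6.85 and 6.18 in WT Scl+, and 8.05 and 7.23 in WT Scl-. Pluripotent cell markers ranged from 6.4 to 6.56 in SclKO, 5.57 to 6.8 in WT Scl+ and 5.72 to 5.86 in WT Scl-. Endoderm markers ranged from 5.37 to 5.58 in SclKO, 5.49 to 5.71 in WT Scl+ and 5.12 to 5.2 in WT Scl-, and neural markers from 4.59 to 4.64, 4.71 to 5.05 and 4.53 to 4.55 in the same order. The means of both lists thus lay lower in WT Scl- than in WT Scl+ without overlap, but their genes did not all do so. Of the 5 endoderm markers tested, 2 were higher without overlap in WT Scl+, against 16.6% of all probe sets. Sox17 differed by 1.51 log units and Hnf4a by -0.13. Among the neural markers, Sox1 and Neurog2 were dim on all 6 arrays, while Nes differed by 0.8 and Pax6 by -0.1 log units. Smooth muscle markers ranged from 5.96 to 6.13, 5.72 to 6.37 and 6.08 to 6.11, and paraxial mesoderm markers from 5.41 to 5.54, 5.09 to 5.47 and 5.53 to 5.61, again in SclKO, WT Scl+ and WT Scl-. The part of the mix of cells in the members' differences was not tested.

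Of 12 genes of early cardiac mesoderm, 7 were tested, 0 passed over all probe sets in any comparison, and 5 lay lower without overlap in WT Scl+ than in WT Scl- (21.2% of all probe sets), with a median of -0.69 log units. Eomes, which activates Mesp1, differed by -1.97 log units (SE 0.46; -1.24 without WT Scl+ replicate 2), Mesp1, the factor of the earliest cardiac progenitors, by -1.47 (SE 0.23) and Mesp2 by -1.46 (SE 0.34). Mesp1 was at 9.74 and 9.64 in SclKO, 8.16 and 8.33 in WT Scl+, and 10.01 and 9.43 in WT Scl-, so both WT Scl+ arrays lay below all others. Against WT Scl+, SclKO was higher without overlap for 6 of the 7 (24.4% of all probe sets), with a median of 1.12 log units, and for Eomes by 2.39 (SE 0.46), Mesp2 by 1.79 (SE 0.34) and Mesp1 by 1.45 (SE 0.23). Between SclKO and WT Scl- the median was 0.3 log units, and Gata6 (0.52, SE 0.17), Smarcd3 (-0.42, SE 0.44) and Eomes (0.42, SE 0.46) differed most.

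Of 16 second heart field signals and factors, 12 were tested and 0 passed in any comparison. In WT Scl+ against WT Scl- 6 lay lower and 1 higher without overlap (21.2% and 16.6% of all probe sets), with a median of -0.51 log units. Hoxb1, a marker of posterior second heart field cells, differed by -1.65 (SE 0.78), Six2, a homeobox factor of second heart field progenitors, by -1.17 (SE 0.25) and Foxc2, a forkhead factor of mesoderm and vessels, by 1.48 log units (SE 0.3). Hoxb1 was dim on WT Scl+ replicate 2, at 2.27, and its difference was -0.49 with that value at the limit and -0.37 without the array. Foxc2 was dim on both WT Scl- arrays, and its difference was 0.88 at the limit. SclKO lay higher without overlap for 10 of the 12 against WT Scl+ (24.4% of all probe sets) and for 9 of the 12 against WT Scl- (21.7%), with medians of 0.71 and 0.41 log units. Six2 was at 8.51 and 8.93 in SclKO, 6.95 and 6.38 in WT Scl+, and 7.86 and 7.81 in WT Scl-. Against WT Scl+, SclKO differed by 2.05 for Six2 (SE 0.25), by 1.21 for Sall1 (SE 0.36; 0.71 without WT Scl+ replicate 2), and for Hoxb1 by at least 1.18 with the dim value at the limit, or 1.06 without that array. Against WT Scl-, SclKO differed by 0.88 for Six2 (SE 0.25), by 0.69 for Hoxb1 (SE 0.78) and by at least 0.2 for Foxc2 with its dim values at the limit.

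The genes of the first field and of differentiation had no common direction. Of 15, 10 were tested, 0 passed, and medians were -0.05, -0.05 and 0 log units in SclKO against WT Scl+, WT Scl+ against WT Scl-, and SclKO against WT Scl-. The Notch targets Hey1 and Hey2 lay on opposite sides of WT Scl+ against WT Scl-: Hey1 differed by -0.83 log units (SE 0.16), Hey2 by 0.82 (SE 0.32; 0.48 without WT Scl+ replicate 2), and Gata4, a zinc-finger factor of cardiac mesoderm, by -0.69 (SE 0.21). In SclKO against WT Scl+, Hey2 was at -1.85 (SE 0.32), Gata4 at 0.99 (SE 0.21) and Hey1 at 0.75 log units (SE 0.16). Against WT Scl-, SclKO differed by -1.03 for Hey2 (SE 0.32), -0.42 for Bmp2 (SE 0.2) and -0.32 for Bmp4 (SE 0.27).

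Genes of beating muscle showed no common direction. Of 22 contractile and chamber genes, 15 were tested and 0 passed, while Nppa, Nppb, Myl2, Ryr2, Pln, Gja5 and Smpx were dim on all 6 arrays. Their median difference stood at 0.02 log units for WT Scl+ against WT Scl-, 0.11 between SclKO and WT Scl+, and 0.01 between SclKO and WT Scl-. Myl7, an early myosin light chain of the heart, was at 7.88 and 7.64 in SclKO, 7.06 and 6.1 in WT Scl+, and 8.4 and 7.61 in WT Scl-. Myl7 thus differed by -1.43 log units between WT Scl+ and WT Scl- (SE 0.39) and by 1.18 between SclKO and WT Scl+ (SE 0.39), or by -0.95 and 0.7 without WT Scl+ replicate 2. Myl4 was lower in WT Scl+ than in WT Scl- by 0.97 log units (SE 0.27) and lower in SclKO than in WT Scl- by 0.95 (SE 0.27). Actc1, the cardiac actin, overlapped between WT Scl+ and WT Scl-: the difference of -0.42 log units (SE 0.59) turned to 0.31 without WT Scl+ replicate 2. Against WT Scl+, SclKO was at 0.49 for Gja1 (SE 0.18) and 0.46 for Myh6 (SE 0.23; 0.19 without WT Scl+ replicate 2), and against WT Scl- at 0.52 for Myh6 (SE 0.23) and, with dim values at the limit, at 0.44 for Myh7.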

How the data were processed

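Total RNA of sorted cells was measured on 6 Affymetrix arrays. Per the submitters' processing notes, tools named for the authors' work are RMA, affy and limma, without versions. The deposited signal values (3.256 to 2822995) are not on a log scale, and between 1040 and 1153 per array exceed 65535, the 16-bit scanner ceiling. Their natural log was taken (1.18 to 14.85); the base is not stated. Symbols, from the platform annotation, were updated through Entrez identifiers (34754 probe sets updated, 204 kept). Arrays have no read depth; their number limits precision. Columns left unused numbered 0.

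After 64 control probe sets were left out, probe sets brighter than the 40th percentile of an array on 2 or more arrays were tested. Group means over the 6 arrays were estimated in limma 3.58.1 (R 4.3.3; 3 residual and 3.129 prior degrees of freedom), two-sided, with Benjamini-Hochberg adjustment over 28363 probe sets. The fit was tested on simulated data with independent normal noise. Recovery was required only for shifts larger than any member difference. It therefore does not show that differences of the size reported would be called. Where 1 probe set per gene is named, it is the one with the highest mean over the arrays. Replicate numbers, from the titles, were taken to pair arrays, because deviations of same-numbered arrays correlated at 0.212, 0.238 and 0.205 for WT Scl+ and WT Scl-, SclKO and WT Scl+, and SclKO and WT Scl-. The rule for named genes took all 10 members, up to 3 genes with the largest absolute difference per list and comparison, and the 5 genes most like Isl1 and Hand1. The members and lists were chosen with earlier results of these data known. Alternatives were the replicate block, other filters, probe sets, normalizations and variance models, and each replicate left out. Genes not matched in the annotation were not analysed here.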

Additional observations from a re-analysis of the deposited data

How the results depend on the processing

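On the brightest probe set of each gene, no member difference between WT Scl+ and WT Scl-, SclKO and WT Scl+, or SclKO and WT Scl- changed its side of the threshold in 441 recomputations of 30 differences, and 12 changed sign, each with 1 array left out. With 1 array left out, WT Scl+ minus WT Scl- ranged from -0.09 to 0.29 log units for Hand2 and -1.43 to 0.26 for Myocd. SclKO minus WT Scl+ ranged from -1.14 to 0.05 for Hand2 and -0.61 to 1.09 for Myocd. SclKO minus WT Scl- ranged from -0.54 to 0.31 for Isl1, -0.56 to 1.35 for Mef2c, -0.62 to 0.41 for Tbx2 and -1.03 to 0.16 for Hand2. The cause was not tested.

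Over all probe sets, leaving out 1 array gave 0 to 9 calls higher and 0 to 37 lower in WT Scl+ against WT Scl-, the highest without WT Scl+ replicate 1. In SclKO against WT Scl+ it gave 0 to 871 higher and 0 to 301 lower, with 0 to 2 member probe sets higher, none of them the brightest of its gene, again highest without WT Scl+ replicate 1, where 1 array stands for the group. In SclKO against WT Scl- it gave 0 to 1 higher and 0 to 2 lower. For SclKO against WT Scl+, the replicate block gave 2 higher and 4 lower, a filter at the 60th percentile 2 higher, 1 probe set per gene 0 lower, a variance trend 14 higher and 23 lower, and a fit of these 2 groups alone 26 lower. For SclKO against WT Scl-, the 60th percentile gave 2 higher and 4 lower, 1 probe set per gene 0 lower, the trend 3 higher and 8 lower, and array weights 3 higher and 4 lower. The replicate block changed no member's call.

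Second minus first heart field came to 0.24 log units for WT Scl+ against WT Scl- and -0.17 for SclKO against WT Scl+ with all probe sets of a gene averaged. With 1 probe set per gene these were 0.96 and -0.82. Counts of member probe sets without overlap were recomputed under settings chosen after seeing the data. The share over all probe sets tested in the same setting follows each count. For WT Scl+ against WT Scl-, 3 of 26 were higher with no filter (16.7%), 0 of 14 at the 60th percentile (17%) and 2 of 20 with median centring (21%), and 6 of 10 were lower with 1 probe set per gene (18.5%). For SclKO against WT Scl+, 5 of 10 were higher with 1 probe set per gene (23.2%), and 0 of 14 were lower at the 60th percentile (18.7%), 2 of 20 after repeated quantile normalization (21%) and 2 of 20 with median centring (20.3%). For SclKO against WT Scl-, 6 of 26 were higher with no filter (19.7%) and 0 of 14 at the 60th percentile (23.9%), and 1 of 10 was lower with 1 probe set per gene (18.7%). Leaving out 1 array raised the shares over all probe sets as well. It gave 2 to 5 of 20 higher (26.5% to 35.5%) and 12 to 14 lower (32.7% to 49.1%) in WT Scl+ against WT Scl-, 10 to 16 higher (34.8% to 48.8%) and 2 to 3 lower (27.9% to 34.5%) in SclKO against WT Scl+, and 2 to 9 higher (35.1% to 38.8%) and 2 to 11 lower (32.3% to 35.8%) in SclKO against WT Scl-. Values of pathway genes and field means without WT Scl+ replicate 2 or at the limit were also chosen after seeing the data.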
